A study of Mus musculus with 8 samples.

Results

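The genes described here are 9 transcripts of metal binding and of the defence against oxidants, namely Mt1, Mt2, Slc7a11, Txnrd1, Srxn1, Gclm, Nqo1, Prdx1 and Sod2. They were chosen by name, and their rows were read in each of the 8 count tables, which together list 21755 genes. CD45+ cells, that is leukocytes, were sorted from full-thickness wounds of the back skin of male C57BL/6J mice. One arm had been made diabetic with streptozotocin (STZ, a toxin of insulin-producing beta cells) at 120 mg/kg at 4 weeks of age, and the other arm were control mice without it. Wounds were taken on days 1, 3, 5 and 7, and the wounds of 5 mice were pooled for each library, so that each arm and day is 1 library. The model is one of lost beta cells, and a pool of 5 mice gives no value for single animals. Cells were captured on the BD Rhapsody microwell system by the study's methods, but on a 10X Genomics one by its GEO entry.

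Metallothioneins are small proteins rich in cysteine that bind zinc and copper, and the factor MTF1 switches their genes on through metal response elements when free zinc rises. Most of the other genes belong to the response governed by NRF2, which KEAP1 holds in check until oxidants or electrophiles modify it, and which then acts through antioxidant response elements. In a wound, neutrophils and macrophages make oxidants against microbes, and the same cells carry these genes for their own protection.

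Each library gave between 3266 and 5436 cells after filtering, and these cells held between 18814802 and 32956113 UMIs, where a UMI is a tag that marks 1 captured RNA molecule. Levels are given as CPM, that is a gene's UMIs scaled to the same total in every library and class, which do not correct for gene length. The control library of day 5 stood apart, since 28.6% of its barcodes were removed and its median depth was 8234 UMIs per cell, against 2575 to 5219 in the other libraries. The 35158 cells were clustered without these 9 genes and without a wider list of 67 related genes, and clusters were named from marker genes. The classes used are neutrophil-like, monocyte-like, macrophage-like, dendritic-like and T cell-like cells. Another 3997 cells, led by Gm26917 and Malat1, stayed unnamed. As an alternative, each cell was named singly from its own marker scores where the best score led by at least 0.1. Of the cells so named, 68.3% had the name of their cluster, with cells of the unnamed cluster counted as different. The lead was smaller in 3985 cells (11.3%). No cell had the same counts as a cell of another library. Markers of keratinocytes summed to 1.10 to 10.6 CPM and those of erythroid cells to 0.233 to 5.96 CPM over all cells, and those of B cells to 2.70 to 10.0 CPM. Basophil markers summed to 1.05 to 30.8 CPM, Langerhans cell markers to 2.34 to 43.0 CPM and plasmacytoid dendritic cell markers to 148 to 213 CPM. Fibroblast markers summed to 13.6 to 238 CPM in 6 libraries, to 884 CPM in diabetic day 7 and to 1522 CPM in control day 7.

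Mt1 lies at chr8:94178883-94180327 and Mt2 at chr8:94172618-94173567, both on the forward strand in RefSeq's annotation of GRCm38.p6. Their levels moved together in the data below, so the promoter of each is shown from 250 bases before to 30 bases from a transcript start. For Mt2 this is the start of the gene, and for Mt1 it is the start at 94179089 that RefSeq's promoter table uses, 206 bases inside the span given above. Capitals mark matches to the core of the metal response element (TGCACNC or TGCGCNC) and of the antioxidant response element (TGACNNNGC) on either strand.
Mt1 (chr8:94178839-94179118): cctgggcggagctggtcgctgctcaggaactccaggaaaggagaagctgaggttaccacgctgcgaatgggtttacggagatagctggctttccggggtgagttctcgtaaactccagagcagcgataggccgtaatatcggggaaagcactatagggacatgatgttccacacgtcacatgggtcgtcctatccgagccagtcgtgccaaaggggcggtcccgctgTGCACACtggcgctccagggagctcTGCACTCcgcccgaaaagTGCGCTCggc
Mt2 (chr8:94172368-94172647): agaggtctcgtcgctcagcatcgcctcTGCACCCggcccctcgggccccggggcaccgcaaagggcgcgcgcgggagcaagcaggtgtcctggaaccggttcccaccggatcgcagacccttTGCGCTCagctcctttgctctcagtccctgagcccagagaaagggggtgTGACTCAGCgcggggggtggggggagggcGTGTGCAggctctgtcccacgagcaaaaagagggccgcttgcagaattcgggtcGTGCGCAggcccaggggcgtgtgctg
The Mt1 window held 3 matches to the metal response core and the Mt2 window held 4, where 1.73% of the 32851 promoter windows of this length held at least 3 and 0.405% at least 4. The Mt2 window also held 1 match to the antioxidant core, TGACTCAGC, and 11.5% of windows held at least 1. Among the other genes, Gclm, Prdx1 and the second listed window of Txnrd1 held 1 antioxidant match each, Gclm held 2 matches to the metal core and Srxn1 held 1. Of all windows, 6.37% held at least 2 metal matches and 24.1% at least 1. One of the metal matches of Gclm overlaps its antioxidant match. The window of Sod2 held neither set of letters. The windows of Slc7a11 (chr3:50443584-50443863) and Nqo1 (chr8:107403176-107403455), both on the reverse strand, also held neither. The Slc7a11 window lies inside the span of its gene, chr3:50364936-50499087. Sequence outside these windows was not searched. A match of letters is a description of the sequence and not evidence of binding.

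Mt1, which buffers zinc and copper, was found in every class and library, and over all cells its highest library was 3.22 times its lowest. Over all cells Mt1 stood at 1155, 2031, 649 and 2010.2 CPM on days 1, 3, 5 and 7 in the diabetic arm. In the control arm it stood at 814, 752, 1789 and 2087 CPM on the same days. The arms therefore overlapped, with diabetic cells higher on days 1 and 3 and lower on days 5 and 7.

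The same sequence of libraries returned within the classes. In neutrophil-like cells Mt1 was 403, 959, 275 and 1459 CPM in the diabetic arm and 297, 339, 785 and 1645 CPM in the control arm. In monocyte-like cells it was 1507.5, 2200.5, 857 and 2275 CPM against 1174, 1024, 2058 and 2323 CPM. Diabetic days 3 and 7 and control days 5 and 7 were the 4 highest libraries for Mt1 in neutrophil-like, monocyte-like, dendritic-like and T cell-like cells. In macrophage-like cells diabetic day 1 took the place of control day 5. There Mt1 was 5374, 2961, 1020.5 and 2547 CPM in the diabetic arm and 1701, 887, 1854 and 2355 CPM in the control arm. The diabetic day 1 value came from 75 macrophage-like cells. Of the 4 libraries highest for Mt1 in the other classes, control day 5, diabetic day 7 and control day 7 also had the highest mitochondrial share of kept cells, at 2.62%, 2.17% and 2.14%. Diabetic day 3 had 1.04%, and the others had 0.398% to 1.49%. The part of this share in the Mt1 level was not tested.

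By class, Mt1 was highest in macrophage-like cells in 6 of 8 libraries and in monocyte-like cells in the other 2. Its median over libraries was 2105 CPM in macrophage-like, 1783 CPM in monocyte-like and 1426.5 CPM in dendritic-like cells, whose ranges overlapped, and it was lowest in neutrophil-like or T cell-like cells in every library. The highest cluster was a macrophage-like one led by Retnla, Ccl8 and Lyve1, with 4283 CPM over 767 cells pooled from all libraries. It was also the highest cluster within each of the 6 libraries that held at least 20 of its cells, at 1498 to 7150 CPM. The 50 fibroblast-like cells had 3397 CPM and the 569 NK cell-like cells 576 CPM. After cells were thinned to 1000 UMIs, which left out shallower cells (726 neutrophil-like, 430 monocyte-like, 265 macrophage-like, 140 T cell-like and 87 dendritic-like), a median of 76.8% of macrophage-like, 64.8% of monocyte-like and 35.6% of neutrophil-like cells had an Mt1 UMI. Unthinned, the shares were 92.6%, 91.1% and 60.4%. Median depths before thinning were 3620 to 11402 UMIs in macrophage-like, 6212 to 9152 in monocyte-like, 3488 to 4403 in T cell-like and 2162 to 2893 in neutrophil-like cells. No class is known to lack Mt1, so its background share could not be read from a class. Genes that neutrophils should lack were read instead. Apoe, a lipid carrier of macrophages, stood in neutrophil-like cells at 4.21% to 50.5% of its macrophage-like level, and Mt1 at 7.49% to 69.9%, above Apoe in 8 of 8 libraries. Both were highest in control day 7, and the part of RNA from other cells in the Mt1 level of neutrophil-like cells was not tested.

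**Figure D1:**
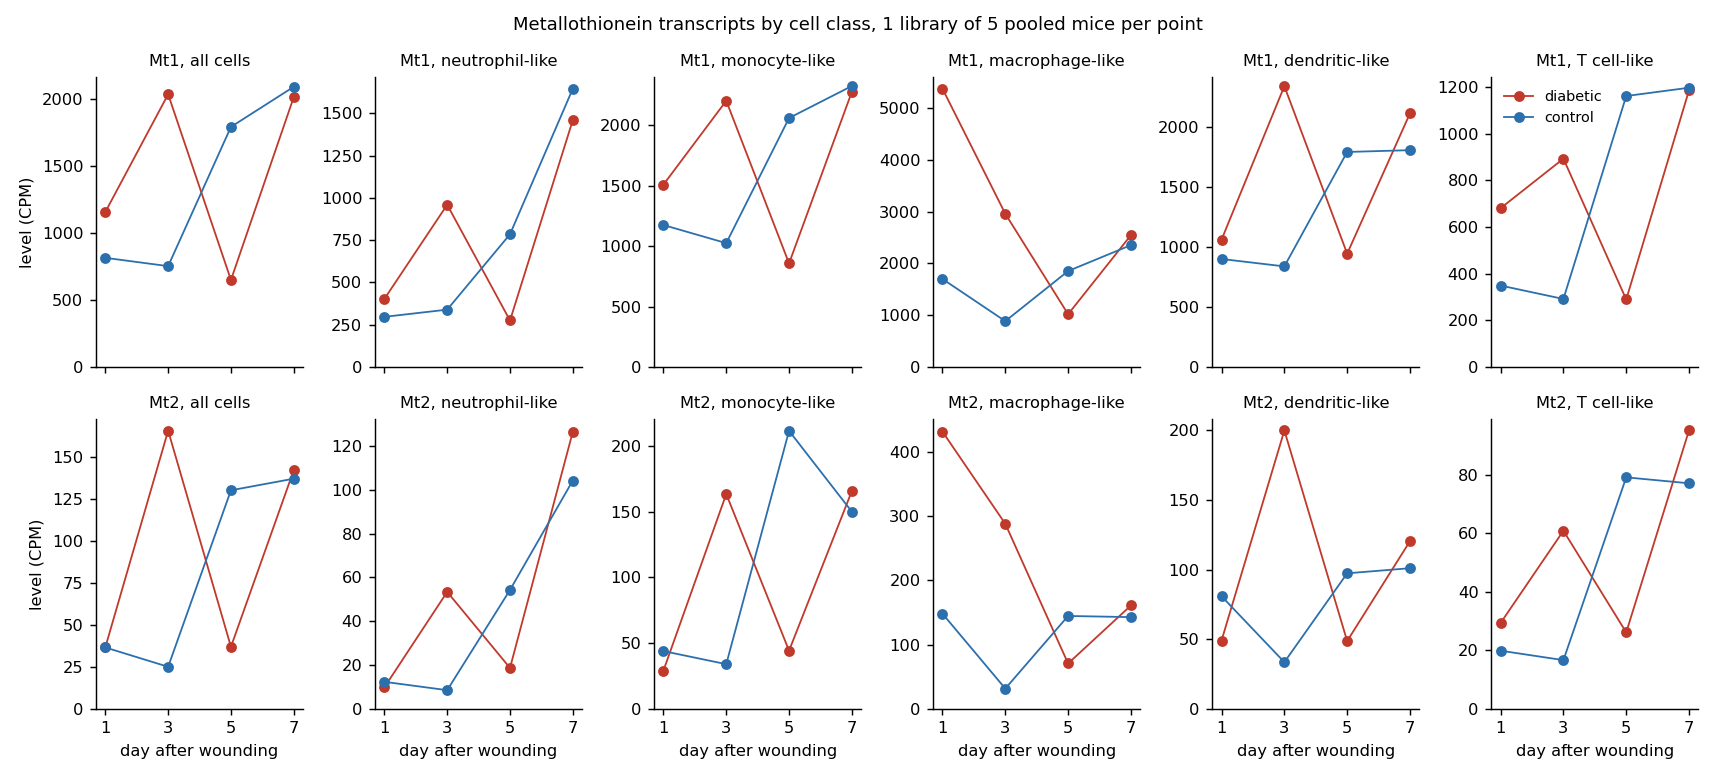
Levels of Mt1 (top) and Mt2 (bottom) in CPM against day after wounding, for all cells and 5 cell classes, with diabetic libraries in red and control libraries in blue. Each point is 1 library of 5 pooled mice and has no replicate, and each panel has its own scale. Diabetic cells lie above control cells on day 3 and below them on day 5 in every panel, and macrophage-like cells of diabetic day 1, with 75 cells, hold the highest values of both genes.

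On single days Mt1 was 2.70 times as high in diabetic as in control cells on day 3 (95% Poisson interval 2.65 to 2.75) and 0.363 times on day 5 (0.356 to 0.370). These intervals cover counting error only, and with 1 library on each side the difference of a day has no test. In the 5 classes the day 3 ratio ran from 2.15 in monocyte-like to 3.34 in macrophage-like cells, and the day 5 ratio from 0.249 in T cell-like to 0.550 in macrophage-like cells. The largest T cell-like cluster of day 5 was led by Trdc and Il17f in the diabetic library (54.4%). In the control library it was led by Ctla4 and Trac (66.9%). Apoe stood in T cell-like cells at 6.30% of its macrophage-like level in diabetic and at 37.3% in control day 5. Mt1 stood there at 28.4% and 62.7%. The part of RNA from other cells in the T cell-like ratio was not tested. Among single clusters with at least 20 cells in both libraries, Mt1 was higher in the diabetic library in 19 of 19 clusters on day 3 (ratios 1.68 to 10.1) and in 0 of 12 on day 5 (0.143 to 0.734). The clusters of a day share their 2 libraries and are not replicates. On day 1 the ratio was above 1 in 14 of 15 clusters, and on day 7 in 6 of 13. Barcodes that had been removed for 20% or more mitochondrial UMIs had Mt1 at 658 CPM in diabetic and 2922 CPM in control day 5, and at 2237 and 1302 CPM on day 3.

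Mt2, the second metallothionein, followed Mt1 with wider swings. Over all cells Mt2 was 36.7, 166, 37.0 and 142 CPM on days 1, 3, 5 and 7 in the diabetic arm and 36.6, 25.0, 130.3 and 137 CPM in the control arm. On day 3 it was 6.62 times as high in diabetic cells (6.04 to 7.28), and 9.16 times in macrophage-like cells (7.60 to 11.1), where it rested on 288 against 31.5 CPM. On day 5 the ratio was 0.284 over all cells (0.263 to 0.306). The share of Mt2 in the UMIs of both metallothioneins was 3.08%, 7.55%, 5.39% and 6.61% in the diabetic arm. In the control arm it was 4.30%, 3.22%, 6.79% and 6.17%, so that the 4 libraries with the most Mt1 also gave Mt2 the largest part. On day 1 the Mt2 ratio differed between classes. It was 1.00 over all cells (0.901 to 1.12), 0.662 in monocyte-like cells (0.566 to 0.774) and 0.606 in dendritic-like cells (0.422 to 0.874), where Mt1 was above 1. In macrophage-like cells it was 2.91 (2.23 to 3.83), near the 3.16 of Mt1 there, and in neutrophil-like and T cell-like cells its interval included 1.

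Slc7a11, the cystine importer that feeds glutathione synthesis, had its highest level in neutrophil-like cells. In neutrophil-like cells it stood at 2200.5, 1984, 2278 and 1403 CPM on days 1, 3, 5 and 7 in the diabetic arm and at 2463, 1855, 1252 and 837 CPM in the control arm. It was highest in neutrophil-like cells in 8 of 8 libraries and lowest in T cell-like cells in 8 of 8. Pooled over libraries, neutrophil-like cells held 66.9% of all Slc7a11 UMIs and 22.0% of all UMIs. This share differed between libraries. Neutrophil-like cells held 8954 of 11542 Slc7a11 UMIs in control day 3 but 1085 of 5075 in control day 5. In control day 5 macrophage-like cells held 2303. In monocyte-like cells Slc7a11 was 640, 647, 726 and 875 CPM in the diabetic arm and 645, 296, 582 and 582 CPM in the control arm.

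Macrophage-like cells had 126 to 248 CPM of Slc7a11 and dendritic-like cells 104 to 245 CPM, ranges that overlap. Against neutrophil-like cells this was 6.81% to 15.8% in macrophage-like and 7.46% to 12.7% in dendritic-like cells. As the mean of each cell's own CPM, which weights shallow cells more, macrophage-like cells had instead 141 to 815 CPM. S100a8, a calcium-binding protein gene abundant in neutrophils, stood at 1.30% to 11.8% and 0.826% to 10.8%, below Slc7a11 in 8 of 8 libraries in both classes. In T cell-like cells Slc7a11 stood at 3.37% to 7.95% of its neutrophil-like level, while S100a8 stood at 1.90% to 9.93%. The share of Slc7a11 was below that of S100a8 in 6 of 8 libraries and above it in diabetic day 1 (6.99% against 5.98%) and control day 5 (6.86% against 1.90%). How much of the T cell-like level came from RNA of other cells was not tested, which limits each Slc7a11 ratio of this class. In monocyte-like cells the range was 15.9% to 69.5% for Slc7a11 and 1.97% to 9.49% for S100a8. After thinning to 1000 UMIs a median of 72.8% of neutrophil-like and 38.8% of monocyte-like cells had a Slc7a11 UMI, beside 9.11% of T cell-like cells. Unthinned, these were 88.6%, 76.0% and 28.2%.

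**Figure D2:**
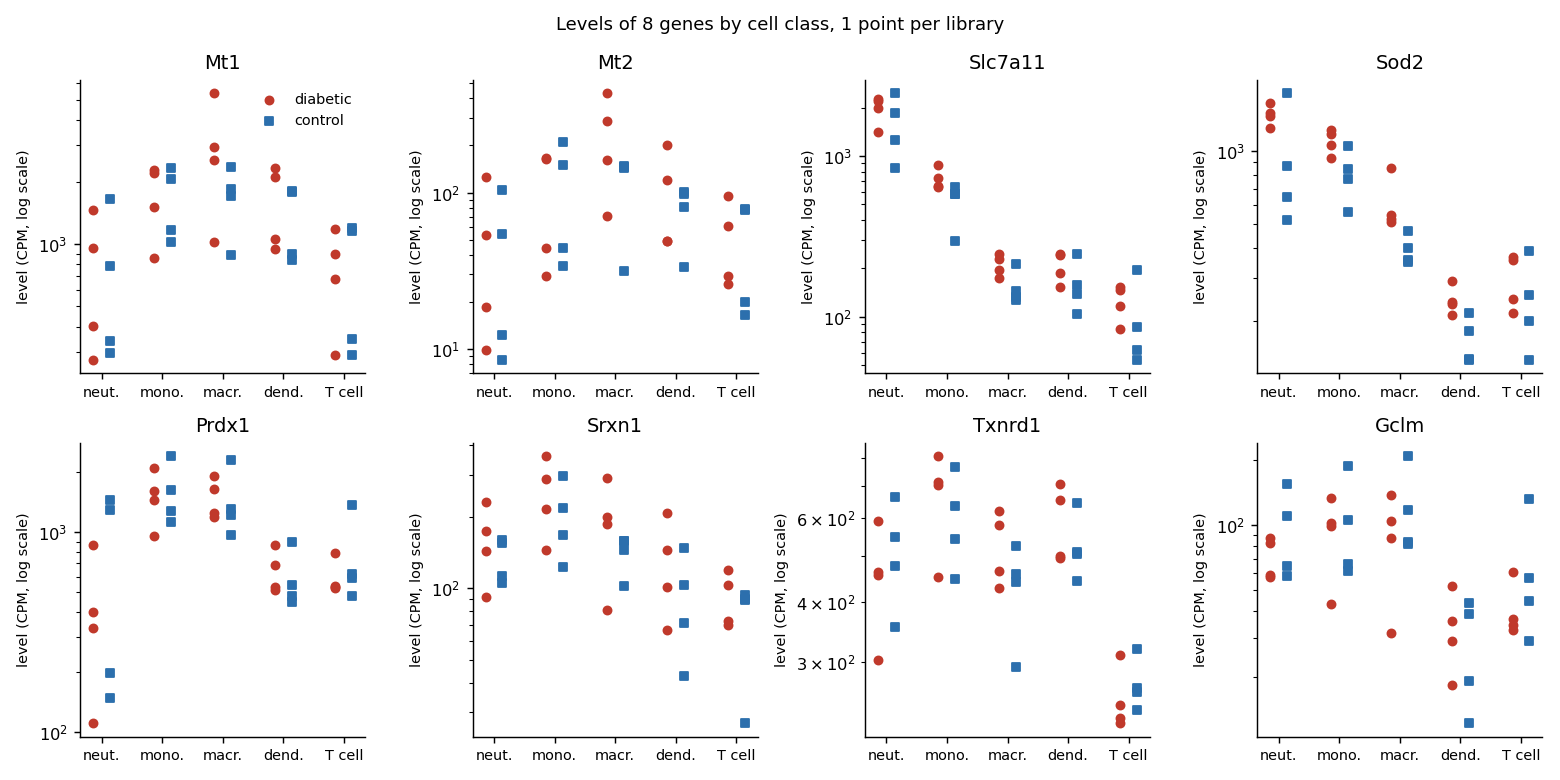
Level of 8 of the 9 genes in CPM (logarithmic axis) in neutrophil-like, monocyte-like, macrophage-like, dendritic-like and T cell-like cells, with 1 point for each library, diabetic in red circles and control in blue squares. Nqo1 is left out because it was near its detection limit. Slc7a11 is highest in neutrophil-like cells in 8 of 8 libraries, and Txnrd1 is lowest in T cell-like cells in 8 of 8.

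Over all cells the ratio of Slc7a11 on day 5 was 5.37 (5.20 to 5.53), yet within neutrophil-like cells it was 1.82 (1.71 to 1.94), and within monocyte-like, macrophage-like and dendritic-like cells 1.25 to 1.57. In monocyte-like cells named singly by marker scores it turned to 0.973. The diabetic library of day 5 had 1918 neutrophil-like cells among 4183 and the control library 255 among 3266. On day 7 the ratio was 1.68 in neutrophil-like cells (1.61 to 1.75) and above 1 in 13 of 13 clusters compared. Among clusters it was above 1 in 16 of 19 on day 3 (lowest 0.713), in 10 of 12 on day 5 (lowest 0.678) and in 6 of 15 on day 1. On day 1 it was 0.893 in neutrophil-like cells (0.874 to 0.913), below 1.

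Sod2, the mitochondrial superoxide dismutase, which NF-kB induces in inflammation, was also highest in neutrophil-like cells, in 7 of 8 libraries. Neutrophil-like cells had 1587, 1438, 1402 and 1245 CPM in the diabetic arm and 1736, 648, 870.3 and 520.3 CPM in the control arm. Monocyte-like cells had 1176, 1059.6, 939 and 1223 CPM against 1051, 564, 772 and 845 CPM. Diabetic cells were thus higher on 4 of 4 days in monocyte-like cells and on 3 of 4 in neutrophil-like cells, with day 1 the exception in the latter.

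In macrophage-like cells Sod2 was 855, 547.5, 512 and 524 CPM in the diabetic arm and 469, 356, 398 and 349.8 CPM in the control arm, and the arms did not overlap. In dendritic-like cells it was 235, 293, 212 and 239 CPM against 216, 140.3, 182 and 138 CPM, with the diabetic library higher on 4 of 4 days. In T cell-like cells it was 368, 357, 216 and 246 CPM against 389, 138, 257 and 201 CPM, with the diabetic library lower on days 1 and 5 and higher on days 3 and 7. With cells named singly by marker scores the day 5 ratio of T cell-like cells turned to 1.20. The largest Sod2 ratio of a day in the 5 classes was 2.58 in T cell-like cells on day 3 (2.13 to 3.13). Sod2 there stood at 24.9% of its neutrophil-like level in the diabetic and 21.4% in the control library, where S100a8 stood at 8.12% and 4.60%, and the part of neutrophil RNA in it was not tested. The largest cluster of these T cell-like cells was led by Trdc and Il17f in the diabetic library (65.7%). In the control library it was led by Ctla4 and Trac (65.9%). The next largest ratio was 2.39 in neutrophil-like cells on day 7 (2.28 to 2.51). The cluster led by Igkc and Cxcr2 held 50.7% of these cells in the diabetic and 86.4% in the control library, and within it Sod2 was 1126 against 514 CPM. Over 13 clusters of any class the median ratio on day 7 was 1.55, and 13 were above 1. On day 3 the ratio was above 1 in 18 of 19 clusters (lowest 0.581), on day 5 in 8 of 12 and on day 1 in 9 of 15. The highest Sod2 of any cluster, 2042 CPM pooled over all libraries, lay in a neutrophil-like one led by Il23a, Il1a and Tnf, with 875 to 2269 CPM in single libraries. Among clusters with at least 20 cells it was the highest in 6 of the 7 libraries that held it. Its mean log2 excess of neutrophil markers, 0.79, was the lowest of the neutrophil-like clusters, though 7 such markers were detected. None was among its 10 leading genes. At the finer resolution of 1.6, a cluster of 2177 cells led by Il23a and Il1a was neutrophil-like. Another of 1440 cells, led by Il23a and Tnf, stayed unnamed.

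**Figure D3:**
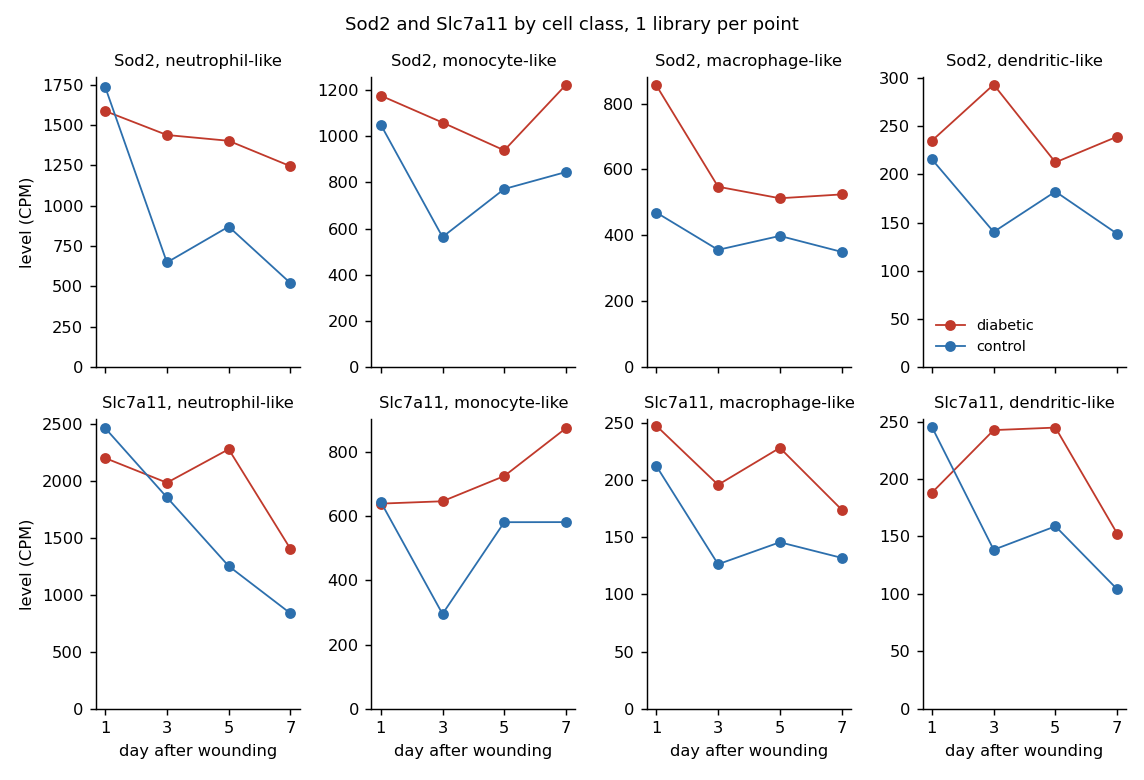
Levels of Sod2 (top) and Slc7a11 (bottom) in CPM against day after wounding in 4 cell classes, with diabetic libraries in red and control libraries in blue, each point being 1 library. Sod2 of macrophage-like cells lies between 512 and 855 CPM in the diabetic libraries and between 349.8 and 469 CPM in the control libraries. In neutrophil-like cells both genes are lower in diabetic than in control cells on day 1 and higher on the later days.

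Srxn1, which encodes sulfiredoxin and repairs overoxidized peroxiredoxins, was highest in monocyte-like cells in 8 of 8 libraries, or in 7 by the mean of each cell's own CPM. It stood there at 144, 358, 287 and 215 CPM in the diabetic arm and at 167, 123, 217 and 298 CPM in the control arm. Over all cells the day 3 ratio was 2.97 (2.82 to 3.13), with 263 against 88.4 CPM, and within classes it ran from 2.05 in neutrophil-like to 4.84 in dendritic-like cells. Diabetic day 3 was the highest library for Srxn1 in 4 of 5 classes.

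Txnrd1, the cytosolic thioredoxin reductase, varied least of the 9 genes over libraries, from 391 to 650.3 CPM over all cells. It was lowest in T cell-like cells in 8 of 8 libraries, at 223 to 320.1 CPM. On day 3 the ratio was 1.40 (1.37 to 1.44), and on the other days 0.977 to 1.04. In neutrophil-like cells the day 5 ratio was 0.699 and turned to 1.02 once libraries were scaled with TMM factors.

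Gclm, the modifier subunit of the enzyme that starts glutathione synthesis, ran from 46.7 to 162 CPM over all cells. Its ratio was 1.65 on day 3 (1.54 to 1.77) but 0.429 on day 5 (0.405 to 0.455) and 0.587 on day 7 (0.552 to 0.625). On day 7 it was below 1 in each of the 5 classes, although in monocyte-like cells the interval included 1 (0.752 to 1.28). Nqo1, a quinone reductase much used as a readout of NRF2, gave only 15 to 80 UMIs per library and 0.739 to 3.36 CPM over all cells. Its ratio on day 3 was 4.10 (2.33 to 7.69), from 74 against 15 UMIs, and by class it was too sparse to compare and is left out of the counts of day ratios below.

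Prdx1, a peroxiredoxin that removes hydrogen peroxide, was highest in monocyte-like cells in 6 of 8 libraries and in macrophage-like cells in the other 2. In macrophage-like cells it was 1195, 1647, 1922 and 1245 CPM in the diabetic arm and 1221.5, 968, 2308 and 1312 CPM in the control arm. In neutrophil-like cells Prdx1 ran from 110.3 to 1449 CPM, with 110.3, 400.2, 331 and 862 CPM in the diabetic and 149, 197, 1449 and 1296 CPM in the control arm. As a share of the macrophage-like level this was 9.23%, 24.3%, 17.2% and 69.2%, and 12.2%, 20.3%, 62.8% and 98.8%.

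Apoe in the same neutrophil-like cells stood at 4.21%, 14.4%, 8.61% and 43.0% of its macrophage-like level in the diabetic and at 5.37%, 10.5%, 27.3% and 50.5% in the control arm. C1qa, a complement gene of macrophages, ran from 0.787% to 54.3%. The 3 libraries with the most Prdx1 in neutrophil-like cells were thus those with the most Apoe and C1qa there, and Prdx1 lay above both in 8 of 8 libraries. The part of RNA from macrophages in this level was not tested. Of the neutrophil-like cells of control day 7, 86.4% lay in 1 cluster led by Igkc and Cxcr2.

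**Figure D4:**
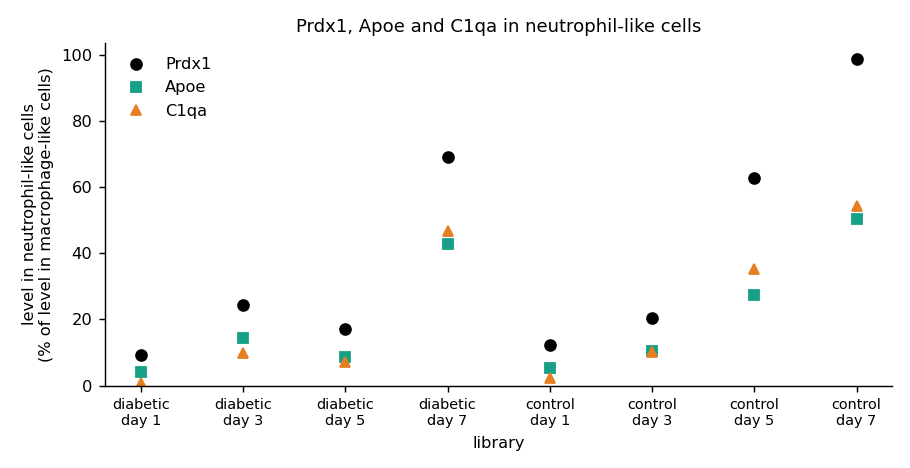
Level of Prdx1, Apoe and C1qa in neutrophil-like cells as a percentage of the level in macrophage-like cells of the same library, for the 8 libraries on the x axis, 1 point per gene and library. Prdx1 lies at 9.23% to 98.8%, and Apoe and C1qa reach 50.5% and 54.3% in control day 7, the library in which all 3 are highest.

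On day 3 the diabetic library was higher for these genes in class after class. Of 40 ratios of the other 8 genes in the 5 classes, 40 were above 1 on day 3, and so was the interval in 40. On day 1 the ratio was above 1 in 17 of 40, on day 5 in 15 of 40 and on day 7 in 20 of 40. Genes and classes share the same pair of libraries, so these counts describe 2 libraries and not 40 independent results. They include Slc7a11 in T cell-like cells, with the limit on RNA of other cells given above. Among genes with a mean of at least 50 CPM over the pair, all 8 of the listed genes that passed this level over all cells were above 1 on day 3, where 48.3% of 3169 genes were. In neutrophil-like cells 7 of 7 were above 1, against 50.3% of genes, in monocyte-like cells 8 of 8 against 49.1%, and in macrophage-like cells 8 of 8 against 51.7%. In dendritic-like cells 7 of 7 were above 1 against 51.4%, and in T cell-like cells 6 of 6 against 50.8%.

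Over 2-fold higher on day 3 were 4 of these 8 genes over all cells (Mt1, Mt2, Srxn1 and Sod2), against 1.64% of genes. The number was 4 of 7 in neutrophil-like cells against 4.04%, 5 of 8 in monocyte-like cells against 2.74%, and 3 of 8 in macrophage-like cells against 1.34%. It was 4 of 7 in dendritic-like cells against 1.92%, and 4 of 6 in T cell-like cells against 5.76%. Mt1 and Srxn1 were among them in each class, and Slc7a11 is 1 of the 4 in T cell-like cells. A gene low in one library can reach 50 CPM through the other alone, as Mt2 did with 25.0 CPM in control day 3 over all cells, so these counts are given as a description. With genes kept instead by their mean over the 6 libraries of the other days, an alternative chosen after seeing the data, 4 of 8 were over 2-fold higher over all cells against 1.78% of genes. It was then 5 of 8 in neutrophil-like (4.47%), 5 of 8 in monocyte-like (3.16%), 3 of 8 in macrophage-like (1.44%), 4 of 7 in dendritic-like (1.95%) and 6 of 8 in T cell-like cells (6.45%). Control day 3 was the lowest of the 8 libraries for Mt2 in 4 of 5 classes and for Srxn1 in 3 of 5, but for Txnrd1, Gclm and Prdx1 in 1 of 5 each.

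On day 5 the directions differed between genes. Over 1.5-fold lower in diabetic cells were Mt1, Mt2, Gclm and Prdx1 over all cells, 4 of 8, where 20.4% of genes were. In neutrophil-like cells it was 3 of 7 against 33% of genes, close to the background, and the median gene there had a log2 ratio of -0.25. In monocyte-like cells 3 of 8 were lower against 5.1%, in macrophage-like cells 3 of 8 against 2.88%, in dendritic-like cells 2 of 7 against 5.03%, and in T cell-like cells 4 of 8 against 12.3%. These were Mt1, Mt2 and Gclm in monocyte-like and macrophage-like cells, and Mt1 and Mt2 in dendritic-like cells. Among the classes, Prdx1 was past this threshold only in neutrophil-like and T cell-like cells. With genes kept by the other days the T cell-like number was 2 of 6 against 11.2%, since Mt2 and Gclm fell short of 50 CPM there. The part of RNA from other cells in these T cell-like ratios was not tested. Slc7a11 on the same day was higher in diabetic cells in the 4 classes other than T cell-like cells, by 1.25 to 1.82 times, with the exception under marker scores given above. In T cell-like cells it was also higher, by 1.35 times (1.06 to 1.74), with the limit on RNA of other cells given above. All of these day 5 values rest on the control library that stood apart in depth and in barcodes removed.

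**Figure D5:**
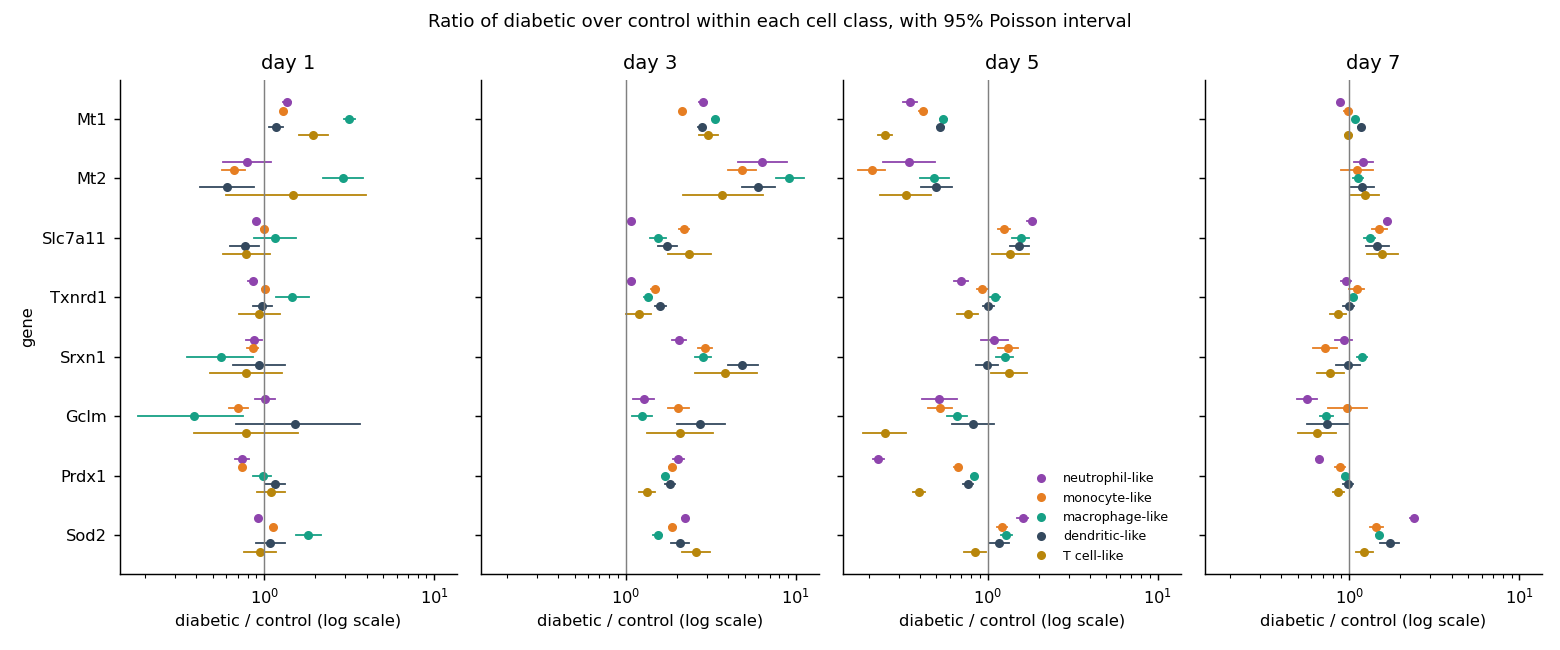
Ratio of diabetic over control level (logarithmic axis) for 8 genes on days 1, 3, 5 and 7, with 1 coloured point for each of 5 cell classes and bars for the 95% Poisson interval, which covers counting error only. On day 3 all 40 points lie to the right of 1. On day 5 Mt1 and Mt2 lie to the left of 1 in each class while Slc7a11 lies to the right, the T cell-like points with the limits given above.

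Whether the arms differed over the whole course was tested with edgeR's quasi-likelihood F test on UMIs summed by library, with day as a block, over all genes. The p-values rest on the spread between the 4 days' pairs of libraries. At an adjusted p of 0.05, 0 of the 9 genes passed over all cells, where 0% of 12905 genes passed, 1458 had an unadjusted p under 0.05 and DESeq2 called 84. Likewise 0 of 9 passed in neutrophil-like and monocyte-like cells, and 0 of 8 in macrophage-like, dendritic-like and T cell-like cells, where Nqo1 was too low to test. The share of all genes that passed was 0% in neutrophil-like, monocyte-like, macrophage-like and T cell-like cells and 0.0109% in dendritic-like cells. In these 5 classes 1103, 764, 916, 572 and 227 genes had an unadjusted p under 0.05, and DESeq2 called 56, 20, 50, 13 and 0. Of the 9 genes, 2 had an unadjusted p under 0.05 over all cells, 1 in neutrophil-like, 2 in monocyte-like, 3 in macrophage-like, 1 in dendritic-like and 0 in T cell-like cells.

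Sod2 was among them over all cells and in each class but T cell-like cells, Slc7a11 in monocyte-like and macrophage-like cells, Txnrd1 in macrophage-like cells and Nqo1 over all cells. The log2 change of Sod2 in diabetic cells was 0.88 ± 0.30 (SE, n = 4 days) in neutrophil-like cells, with an edgeR adjusted p of 0.33. In macrophage-like cells it was 0.61 ± 0.11 with an edgeR adjusted p of 0.21, and DESeq2 called it, with an adjusted p of 0.00065. Over 12 alternatives the adjusted p of this value ran from 0.000272 to 0.972, and 2 called it. Slc7a11 in macrophage-like cells had a log2 change of 0.50 ± 0.12, an edgeR adjusted p of 0.24 and a DESeq2 adjusted p of 0.0213, with 0.0213 to 0.972 over the alternatives, of which 2 called it. S100a8 in the same macrophage-like cells was 1367, 960, 516 and 464 CPM in the diabetic and 1052, 554, 78.8 and 584.5 CPM in the control arm, higher in the diabetic library on days 1, 3 and 5. Sod2 too was highest in neutrophil-like cells, in 7 of 8 libraries. The part of neutrophil RNA in the Slc7a11 and Sod2 differences of macrophage-like cells was not tested. The median log2 change of the listed genes was 0.22 over all cells, 0.34 in neutrophil-like, 0.18 in monocyte-like, 0.48 in macrophage-like, 0.26 in dendritic-like and 0.14 in T cell-like cells, and for all genes it lay between -0.01 and 0.02. The medians were not tested.

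Over days, the same test on the slope with day as a number called Slc7a11 and Sod2 over all cells. Slc7a11 fell by 0.42 on the log2 scale per day (SE 0.09, edgeR adjusted p = 0.031) and Sod2 fell by 0.31 (SE 0.06, edgeR adjusted p = 0.031). This was 2 of 9 genes, where 10.3% of all genes passed. The marker genes of neutrophils summed to 919 to 24463 CPM over all cells, and fewer cells of a class and less RNA per cell cannot be told apart in sums over all cells. Without the libraries of day 1 or of day 7 neither gene passed, with edgeR adjusted p values of 0.153 to 0.678. Without day 7 the slopes were -0.49 for Slc7a11 and -0.41 for Sod2, and without day 1 they were -0.33 and -0.14.

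In neutrophil-like cells 4 of 9 genes had a slope that passed, against 44.8% of all genes, so that the number is no larger than for other genes. Slc7a11 fell by 0.34 per day (edgeR adjusted p = 0.0020) and Sod2 fell by 0.32 (edgeR adjusted p = 0.0033). Mt2 rose by 0.37 per day (edgeR adjusted p = 0.0067) and Prdx1 rose by 0.37 (edgeR adjusted p = 0.0029). Apoe in the same cells went from 106 CPM on day 1 to 4180 CPM on day 7 in the diabetic and from 80.8 to 5154 CPM in the control arm. As a share of the macrophage-like level Mt2 lay above Apoe in 7 of 8 libraries (2.27% against 4.21% in diabetic day 1), and in T cell-like cells in 6 of 8. The part of macrophage RNA in both slopes was not tested. With cells named singly by marker scores none of the 4 passed (edgeR adjusted p of 0.0784 to 0.158), and the slopes were smaller, at -0.13 for Slc7a11, -0.18 for Sod2, 0.14 for Prdx1 and 0.30 for Mt2. Without day 7 none passed either (edgeR adjusted p of 0.0799 to 0.451), with -0.27 for Slc7a11, -0.32 for Sod2, 0.47 for Prdx1 and 0.22 for Mt2. Without day 1 Slc7a11 alone passed, and the others had 0.42 for Mt2, 0.31 for Prdx1 and -0.18 for Sod2. The largest cluster of neutrophil-like cells was led by Ngp and Retnlg in diabetic day 1, by Il23a and Il1a in control day 1, by Cxcr2 and Lrg1 on days 3 and 5 and by Igkc and Cxcr2 on day 7. No gene of the 9 passed in monocyte-like cells, where 0.844% of genes did, in macrophage-like cells (0.849%), dendritic-like cells (0.261%) or T cell-like cells (0.0733%). At an unadjusted p under 0.05 there were 2, 1, 1 and 3 of the listed genes in these 4 classes, and 1414, 1152, 1060 and 642 of all genes. DESeq2 called 0, 0, 0 and 1 of the listed genes, the last being Slc7a11, and 372, 245, 146 and 74 of all genes.

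The wider list held 67 genes of the same pathways, namely partners of NRF2, glutathione, thioredoxin, NADPH, zinc and oxidant-making genes. Between the arms 0 of 66 tested passed over all cells, 0 of 61 in neutrophil-like, 0 of 60 in monocyte-like, 0 of 60 in macrophage-like, 0 of 59 in dendritic-like and 0 of 53 in T cell-like cells, and 9, 12, 11, 10, 7 and 2 had an unadjusted p under 0.05. The median log2 change of the list was -0.10 over all cells and -0.05 in macrophage-like cells, beside 0.02 and -0.01 for all genes. The lowest p in macrophage-like cells was that of Slc39a14, a zinc importer, with a log2 change of 0.78 (edgeR adjusted p = 0.16). It stood at 130, 108.0, 96.6 and 90.8 CPM in the diabetic arm and at 85.6, 53.6, 55.9 and 59.9 CPM in the control arm. Nos2, the inducible nitric oxide synthase, came next there with 2.58 (edgeR adjusted p = 0.21), at 2.88 to 12.0 CPM against 0 to 2.60 CPM, and Slc48a1, a heme transporter, had -0.51 (edgeR adjusted p = 0.27).

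In neutrophil-like cells the lowest p was that of Ncf1, a subunit of the NADPH oxidase, with a log2 change of 0.87 (edgeR adjusted p = 0.27). It stood at 1024, 913, 772 and 608 CPM in the diabetic arm and at 789, 369, 476 and 397 CPM in the control arm, higher on 4 of 4 days. Gpx4, which clears lipid peroxides, had -0.64 there (edgeR adjusted p = 0.27), and Mafg, a partner of NRF2, had 0.65 (edgeR adjusted p = 0.33). Over all cells the lowest p values were those of Slc39a14 (0.64), Gstp1 (-0.39) and Nos2 (2.54), each given with its log2 change and each with an edgeR adjusted p of 0.44. In monocyte-like cells they were those of Nos2 (1.87), Gpx1 (-0.41) and Slc39a14 (0.65), with an edgeR adjusted p of 0.48. In dendritic-like cells Ncf1 had 0.40, Gstm1 -0.85 and Prdx5 0.33, with edgeR adjusted p values of 0.68 to 0.72. In T cell-like cells Cat had -0.94, Prdx3 -0.62 and Gstp1 -0.42, with an edgeR adjusted p of 0.999. Over days 3 genes of the list rose and 10 fell over all cells, where 10.3% of genes passed. Those that fell included Glrx, a glutaredoxin, by 0.44 per day (edgeR adjusted p = 0.025), and Prdx5 by 0.40 (edgeR adjusted p = 0.025), and those that rose included the catalase gene Cat by 0.28 (edgeR adjusted p = 0.031). Without day 1, or without day 7, 0 of 66 passed, against 0 of 13261 and 1 of 12746 genes. These 3 genes then had edgeR adjusted p values of 0.146 to 0.678. In neutrophil-like cells 21 rose and 20 fell of 61, where 2254 rose and 2043 fell of all 9589 genes, and no difference of these shares was tested. Without day 1 it was 10 and 9 of 62, where 553 rose and 696 fell of all 9802 genes. Without day 7 it was 1 and 3 of 61, where 52 rose and 71 fell of all 9567 genes. With cells named by marker scores 5 rose and 7 fell of 55, where the slope passed in 684 of 7916 genes. In macrophage-like cells Cybb, the catalytic subunit of the NADPH oxidase, rose by 0.20 per day (edgeR adjusted p = 0.039), and in dendritic-like cells Glrx fell by 0.18 (edgeR adjusted p = 0.0498). Neither passed without day 1, day 5 or day 7, with edgeR adjusted p values of 0.0736 to 0.48 for Cybb and 0.0854 to 0.703 for Glrx, and over 11 alternatives each, 7 and 4 called them.

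The genes whose pattern was most like Mt1 were sought over 55 sums of 1 class and library each, among 3437 genes, on log2 levels. The closest was Mt2 with Pearson r = 0.92, followed by Emp1, Vat1, Renbp and Snx8 with r of 0.83 to 0.81. For Slc7a11 they were Clec4e, Cd24a, Clec4d, Il1rn and Trem1 with r of 0.94 to 0.93, and for Sod2 they were Tnf, Mapkapk2, Il1rn, Clec4d and Cdk5r1 with r of 0.93 to 0.90. Slc7a11 and Sod2 had r = 0.87 with each other, and Mt1 had r = -0.11 with Slc7a11 and 0.03 with Sod2. The sums share libraries and cell classes, so these values are descriptions.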

How the data were processed

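CD45+ cells of 8 wound libraries (4 days, 2 arms, 5 mice pooled in each) were analysed. The authors deposited tables of unnormalized UMI counts, genes by cell barcodes, made with fastp (version 0.20.1 in the submitters' processing notes), UMI-tools and STAR. The study's methods name Ensembl 92, that is GRCm38, whereas the processing notes name mm9, so coordinates here are RefSeq's and only gene symbols were taken from the tables. The 9 genes, the wider list and the marker lists were chosen with earlier results of these data known.

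A barcode stayed if it had more than 200 genes and a mitochondrial share below 20%. The source label of some libraries names a marker other than CD45, from CD46 to CD52, and all were read as CD45+ as the study's methods state. Clusters came from 2000 variable genes, 10 principal components and 30 neighbours at Leiden resolution 0.8 (scanpy 1.11.5, leidenalg 0.10.2, Python 3.11.15), without the listed genes. Lists of B cells, keratinocytes, erythroid cells, plasmacytoid dendritic cells, basophils and Langerhans cells matched no cluster. Doublets were not removed, and leaving out the deepest 5% of cells was an alternative. UMIs were summed by class and library with at least 20 cells. Day ratios have exact 95% Poisson intervals, and a count of 0 was set to 3 for a bound. Tests used edgeR 4.0.16 in R 4.3.3 (TMM, filterByExpr, Benjamini-Hochberg over all genes, two-sided, threshold 0.05), with arm and day as a block, or arm and the slope of day. The code was run on simulated data. DESeq2 1.42.0 was an alternative. The error of the arm effect is its spread over 4 days, since each day has 1 library per arm. Motif letters were searched in windows of 280 bases of RefSeq promoters.

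Named genes are the 9, then for each class any gene of the wider list past the threshold between arms and otherwise the 3 with the lowest p, and the 5 most like Mt1, Slc7a11 and Sod2 (mean of at least 50 CPM, log2 of CPM + 10). Glrx, Prdx5, Cat and Cybb were chosen after their slopes were seen.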

Additional observations from a re-analysis of the deposited data

Results flagged for a closer look

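For Mt1, Mt2 and Prdx1 the 95% interval of the ratio of diabetic over control cells lay above 1 in all 5 classes on one day and below 1 in all 5 on another, and the difference between days was not tested. Gclm missed this only in dendritic-like cells on day 5 (0.822, interval 0.621 to 1.10), and Srxn1 had ratios on both sides of 1 in each class without such a day below 1. For Mt1 the ratio over all cells was 1.42 on day 1, 2.70 on day 3 and 0.363 on day 5. For Mt2 it was 6.62 on day 3 and 0.284 on day 5. For Prdx1 it was 1.84 on day 3 and 0.478 on day 5. The day 5 ratios of T cell-like cells carry the limit on RNA of other cells given above. A test of the slope over days against the arm called none of the 9 genes in any class or over all cells (edgeR, 0 genes of any kind, with 138 to 308 genes at an unadjusted p under 0.05), with an unadjusted p under 0.05 for 2 of the genes in neutrophil-like and 1 in macrophage-like cells, and DESeq2 called none of the 9.

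Barcodes left out for 20% or more mitochondrial UMIs carried Mt1 at a level above that of the control library of the same day on day 3, and with an interval that included 1 on day 1. In diabetic day 3 it was 2237 CPM, from 241 UMIs in 177 barcodes, against 1302 CPM from 88 UMIs in control day 3, a ratio of 1.72 (95% Poisson interval 1.34 to 2.22). In diabetic day 1 it was 2069 CPM, from 47 UMIs in 40 barcodes, against 1467 CPM from 56 UMIs in control day 1, a ratio of 1.41 (0.937 to 2.12). On day 5 it was lower in the diabetic library, at 658 against 2922 CPM (0.225, interval 0.150 to 0.326), and on day 7 it was 3022 against 3113 CPM (0.971, interval 0.742 to 1.27).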

How the results depend on the processing

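The difference between the arms passed for more of the 9 genes under some settings. Without a filter on low counts the number between arms was 1 in neutrophil-like, 2 in monocyte-like, 4 in macrophage-like and 1 in dendritic-like cells. Of all genes 231 of 18065, 137 of 17516, 186 of 19044 and 115 of 17200 passed in these classes. With DESeq2 the number of the listed genes was 2 in macrophage-like cells, against 50 of 10016 genes. Leaving out each day in turn gave 0 to 1 in neutrophil-like cells, against 0 to 63 of all genes. The number with a slope over days was 0 to 2 over all cells, 0 to 5 in neutrophil-like, 0 to 1 in monocyte-like and 0 to 1 in macrophage-like cells when each day was left out in turn. Of all genes 0 to 1547, 123 to 4692, 5 to 409 and 30 to 101 then passed. With single-cell marker scores the number of listed genes with a slope was 0 in neutrophil-like cells, against 684 of 7916 genes. Without the filter it was 1 in monocyte-like, 1 in dendritic-like and 2 in T cell-like cells, against 433, 341 and 139 of all genes. With DESeq2 it was 1 in T cell-like cells, against 74 of all genes. Slopes differing between the arms numbered 2 in macrophage-like cells without the filter, against 24 of 19044 genes. With genes kept by their level on the other days, an alternative chosen after seeing the data, the number over 1.5-fold lower on day 5 in T cell-like cells was 2 in place of 4, because fewer of the 9 genes were kept. For the other changes the cause was not tested. RLE scaling, 500 genes per cell, resolution 1.6 and no day block gave counts within 1.5 times of those reported. Sod2 in T cell-like cells turned to a log2 change of -0.058 without day 3, and ran to 0.48 without the other days. Of 1163 day ratios recomputed, 953 stayed within their 95% interval, 202 moved out of it on the same side of 1 or from an interval that held 1 (60 of 174 with single-cell marker scores), and 8 turned to the other side of 1: Mt2 on day 7 in neutrophil-like cells (0.893, deepest cells left out), Txnrd1 on day 5 in neutrophil-like cells (1.02, TMM-scaled), and with single-cell marker scores Slc7a11 on day 5 in monocyte-like (0.973), Srxn1 on day 7 in monocyte-like (1.02), Gclm on day 1 in macrophage-like (1.25) and Sod2 on day 5 in T cell-like cells (1.20), and with the mean of each cell's own CPM, an alternative chosen after seeing the data, Txnrd1 on day 5 in T cell-like (1.23) and Prdx1 on day 1 in dendritic-like cells (0.930). By that mean Slc7a11 on day 1 in macrophage-like cells, whose interval held 1, went from 1.17 to 0.687. Of 15 median shares of cells with a UMI, 15 moved without thinning and 8 when thinned to 500 UMIs. The test between arms was paired by day, and each arm and day has 1 replicate. Depth limited Nqo1 most, with 15 to 80 UMIs per library.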
